A study of Homo sapiens with 18 samples.

Results

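The set described here holds the small noncoding RNA genes of the RKO colon cancer cell line: genes whose symbol begins with SNORA, SNORD, SCARNA, RNU or RNY, together with RN7SK, RN7SL1, RN7SL2, RMRP, RPPH1 and TERC. A gene was kept when its TPM (a length-corrected share of reads that adds up to 1000000 in each column) was above 0 in at least 3 of the 6 columns. Of 25673 genes listed for RKO, 83 carried such a name and 38 were kept: 13 SNORA, 10 SNORD and 9 SCARNA genes and the 6 genes given by name. Of the others, 44 were listed at 0 in every column, among them all 12 RNU genes, and no RNY gene was listed. SNORA110, just outside the rule, was above 0 in 2 columns (2.91 TPM in DOXplus 3 and 1.73 TPM in DOX 2), and SNORA58, just inside it, in 5. The tables of the other 2 cell lines listed 0 such genes, so no comparison between lines was possible.

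All 6 RKO samples carried a puromycin resistance gene and a hairpin RNA that silences MUC1, a mucin of the cell surface, under a tetracycline-inducible promoter. The study compares cells given 500 ng/ml doxycycline, which switches the hairpin on, with cells given 0.1% DMSO as vehicle, in medium with 10% serum, to ask what loss of MUC1 changes. There were 3 DOXplus columns (hairpin induced) and 3 columns headed DOX, read as vehicle because the protocol names no other condition. The labels do not say whether the line is 1 clone. A control hairpin given doxycycline was not analysed here, so effects of doxycycline and of the hairpin cannot be told apart. The samples are described only as cells cultured in triplicate, so the spread between columns may be partly technical.

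Small nucleolar RNAs guide chemical modification of other RNAs. Box C/D RNAs (SNORD genes) direct ribose methylation, box H/ACA RNAs (SNORA genes) direct pseudouridylation, and small Cajal body RNAs (SCARNA genes) guide the same reactions on spliceosomal RNAs. A few members do other work: SNORD3A, SNORD3C and SNORD3D encode U3, and SNORA73A and SNORA73B encode U17, and both RNAs take part in cutting the ribosomal RNA precursor. RN7SL1 and RN7SL2 encode 7SL, the RNA of the signal recognition particle that brings ribosomes making secreted proteins to the endoplasmic reticulum. RN7SK encodes 7SK, which holds the elongation kinase P-TEFb inactive; RMRP and RPPH1 encode the RNAs of RNase MRP and RNase P; TERC encodes the template RNA of telomerase. Most of these RNAs carry no poly(A) tail, and the libraries were made with a kit for polyadenylated RNA (TruSeq Stranded mRNA), so the values need not follow the amounts in the cell.

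RN7SL1 and RN7SL2, and RN7SL3 outside the set, are near-identical copies. Reads from these genes can hardly be assigned to 1 copy, so the division between RN7SL1 and RN7SL2 depends on the authors' counting and is uncertain.

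The sequences below show members on which other results turn, and how alike some copies are; they are the GENCODE release 29 transcripts (GRCh38), written 5′ to 3′. The U3 genes lie together on chromosome 17 (SNORD3A at chr17:19188016-19188232, plus strand, SNORD3D at chr17:19112420-19112636, minus strand, and SNORD3C at chr17:19190029-19190245, minus strand). Capitals mark the bases of SNORD3A that differ from SNORD3D, and the bases of the other copies that differ from SNORD3A.
SNORD3A: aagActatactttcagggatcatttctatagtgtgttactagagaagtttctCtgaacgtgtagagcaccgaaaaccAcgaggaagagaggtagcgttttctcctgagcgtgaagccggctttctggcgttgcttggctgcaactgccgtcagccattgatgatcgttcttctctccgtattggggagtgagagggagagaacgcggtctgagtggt
SNORD3D: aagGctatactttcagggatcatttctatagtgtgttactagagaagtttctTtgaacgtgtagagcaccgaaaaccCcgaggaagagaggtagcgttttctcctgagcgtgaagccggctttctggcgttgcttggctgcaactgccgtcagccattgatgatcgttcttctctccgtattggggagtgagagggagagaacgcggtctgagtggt
SNORD3C: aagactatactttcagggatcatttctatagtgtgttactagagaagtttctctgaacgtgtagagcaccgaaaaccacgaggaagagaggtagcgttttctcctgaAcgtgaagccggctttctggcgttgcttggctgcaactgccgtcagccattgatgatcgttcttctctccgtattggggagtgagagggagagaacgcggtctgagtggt
SNORD3A and SNORD3D differed at 3 of 217 bases and SNORD3A and SNORD3C at 1. SNORA74C-1 and SNORA74C-2 differed at 4 of 201 bases, and the U17 genes SNORA73A and SNORA73B were 93.2% identical.

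A box C/D RNA and a box H/ACA RNA show how the guide classes are built. SNORD84 (chr6:31541101-31541178, minus strand) is shown because it fell in the DOXplus columns, with TGATG near its start and CTGA near its end in capitals, the short forms of boxes C and D.
SNORD84: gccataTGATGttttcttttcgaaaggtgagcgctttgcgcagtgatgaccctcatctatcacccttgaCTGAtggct
SNORA73A (chr1:28507366-28507571, plus strand) is the most abundant SNORA gene, with the ACA that stands 3 bases before its end in capitals.
SNORA73A: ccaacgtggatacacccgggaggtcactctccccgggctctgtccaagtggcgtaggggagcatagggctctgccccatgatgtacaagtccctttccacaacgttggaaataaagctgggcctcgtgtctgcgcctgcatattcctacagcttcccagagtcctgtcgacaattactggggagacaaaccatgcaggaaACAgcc
Read on the transcript strand, TGATG in the first 20 bases together with CTGA in the last 20 occurred in 224 of 275 SNORD genes of the GENCODE release 29 annotation (81.5%) and in 5 of the 8 SNORD members it holds. ACA with 3 bases after it occurred in 107 of 142 SNORA genes (75.4%) and in 5 of 10 SNORA members. ACA with at most 5 bases after it occurred in 129 of 142 SNORA genes (90.8%) and in 10 of 10 SNORA members.

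In bulk RNA, fewer cells of a type and less RNA per cell cannot be told apart. As a check of the headings, MUC1 had 0.108, 0.105 and 0.204 TPM in the DOXplus columns, against 15.2, 1.24 and 1.03 TPM in the DOX columns (log2 change -1.88 ± 0.43, limma adjusted p = 0.00272). MUC1 was below the minimum of the test without DOX 1. DOX 1 stands apart from the other columns. The summed level of 11 fibroblast and endothelial markers was 2.50, 3.80 and 3.07 TPM in the DOXplus columns, against 655 TPM in DOX 1 and 8.17 and 7.12 TPM in DOX 2 and DOX 3. Most of that sum in DOX 1 came from VIM (361 TPM) and CAV1 (111 TPM), and COL1A1, COL1A2 and COL3A1 had 54.6, 84.8 and 41.2 TPM there. The other fibroblast markers were low in DOX 1: DCN had 0.994, LUM 1.19 and PDGFRB 0.0157 TPM. The endothelial markers stayed near 0: PECAM1 and VWF had at most 0.0226 and 0.0114 TPM in any column, and CDH5 was at 0 in every column. Of 8 colon epithelium markers, VIL1, KRT20 and GPA33 were at 0 in every column, and EPCAM was present at 2.09 to 6.82 TPM. The part of these genes in the results below was not tested; results that rest on DOX 1 are given with and without it.

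Small noncoding RNA genes held most of the TPM in every column. Their share was 78.2%, 70.3% and 75.3% in the DOXplus columns and 70.9%, 67.6% and 71.7% in the DOX columns. The arms overlapped (74.6% ± 4.02 against 70.1% ± 2.16, SD, n = 3 each; exact two-sided permutation p = 0.3; with 3 columns per arm p cannot be below 0.1). Without DOX 1 the DOX mean was 69.6%.

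**Figure D1:**
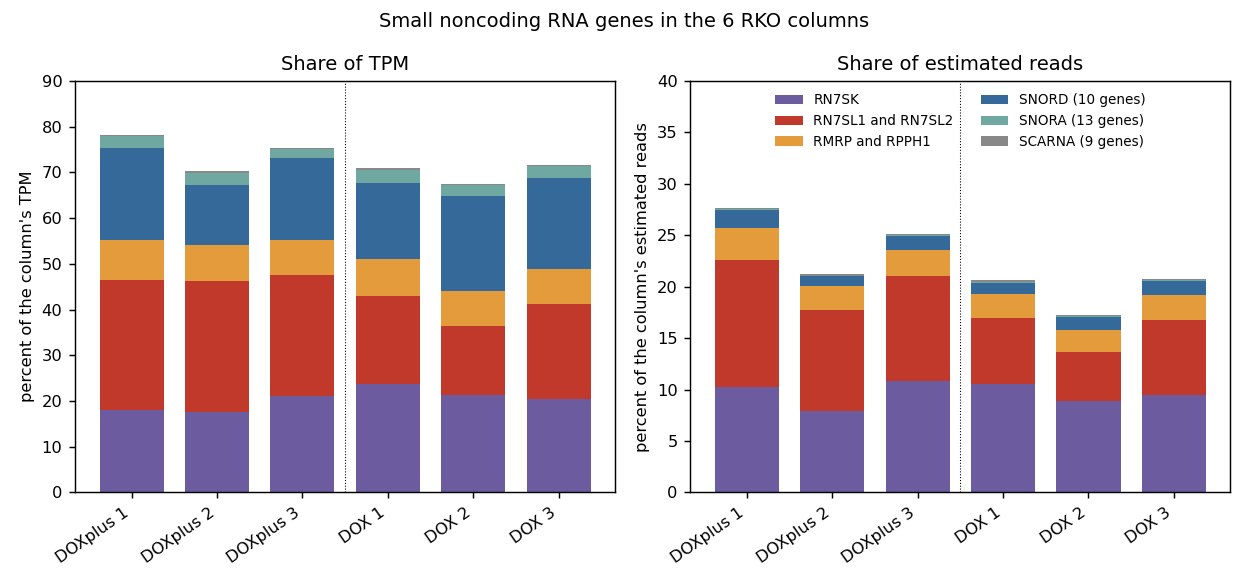
Share of each RKO column held by the members, stacked by class, as percent of TPM (left) and percent of estimated reads (right), with DOXplus columns left of the dotted line and DOX columns right of it. The band of RN7SL1 and RN7SL2 is wider in each DOXplus column (26.5% to 28.6% of TPM) than in each DOX column (15.2% to 20.8%), and the SNORD band shrinks from left panel to right.

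The classes differed in direction. The 6 genes given by name held 55.2%, 54.2% and 55.2% of TPM in the DOXplus columns and 51.0%, 44.2% and 49.0% in the DOX columns, without overlap (exact permutation p = 0.1, adjusted p = 0.2 over 4 classes). SCARNA genes held 0.228%, 0.266% and 0.235% in the DOXplus columns and 0.278%, 0.314% and 0.306% in the DOX columns, also without overlap (exact permutation p = 0.1, adjusted p = 0.2). SNORD genes held 20.1%, 13.0% and 17.9% in the DOXplus columns and 16.8%, 20.6% and 19.8% in the DOX columns. SNORA genes held 2.66%, 2.73% and 2.00% in the DOXplus columns and 2.87%, 2.49% and 2.57% in the DOX columns. Both classes overlapped between arms (exact permutation p = 0.6 for SNORD and 0.7 for SNORA). No class difference passed 0.05, and this design could not have passed it.

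A TPM share is not a share of reads, because short genes are weighted up. Low values of intronless genes lay closest to whole reads when each length was shortened by 196.5 bases. With that shortening 75.3% to 83.2% of them per column lay within 0.2 of a whole number, against 58.0% to 63.0% with none. An even spread with nothing fitted would give 40%. The shortening and a factor per column were chosen on these same values, so the higher share is no test of the estimate. The 31 members of 200 bases or more were among the 962 genes used to find the shortening, so their own fit to it is no independent check. With it, 44 of 45 low member values lay within 0.2 of a whole read. By this estimate 1 read was worth 2.34 to 5.00 TPM in SNORA74B, and 0.00975 to 0.0208 TPM in a gene of 2000 bases. The 7 members shorter than 196.5 bases could not be converted and count as 0 in shares of reads; SNORA74A, at 200 bases, is converted with a large error.

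On the scale of estimated reads the set was smaller and its arms did not overlap. It held 27.7%, 21.2% and 25.1% of estimated reads in the DOXplus columns and 20.6%, 17.3% and 20.8% in the DOX columns (exact permutation p = 0.1). The total, in units of 1000000 estimated reads, was 9.51 to 13.5 per DOXplus column and 8.16 to 12.3 per DOX column. SNORD3A shows how far the scales part: it held 19.7%, 12.6% and 17.5% of TPM in the DOXplus columns and 16.3%, 20.2% and 19.3% in the DOX columns. Of estimated reads it held 1.70%, 0.863% and 1.35% in the DOXplus columns and 1.09%, 1.28% and 1.36% in the DOX columns. RN7SK moved less between scales, with 18.1%, 17.6% and 21.1% of TPM in the DOXplus columns and 10.3%, 7.94% and 10.8% of their estimated reads, against 23.7%, 21.3% and 20.4% of TPM in the DOX columns and 10.5%, 8.88% and 9.45% of their estimated reads.

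7SL RNA rose. RN7SL1 had 161306, 168236 and 154543 TPM in the DOXplus columns, against 110065, 88791 and 124211 TPM in the DOX columns. RN7SL2 had 123540, 117671 and 110318 TPM in the DOXplus columns, against 83155, 63513 and 83980 TPM in the DOX columns. Every DOXplus column was above every DOX column for both genes. The log2 change was 0.60 ± 0.09 (SE, n = 3 each, limma adjusted p = 5.41e-05) for RN7SL1 and 0.62 ± 0.10 (limma adjusted p = 5.56e-05) for RN7SL2. SEs of log2 changes are limma's, which draw each gene's variance toward that of genes at a similar level. With a prior variance that does not follow the level, limma adjusted p was 0.0394 for RN7SL1 and 0.0329 for RN7SL2. With the column number as a block, limma adjusted p was 0.0417 for RN7SL1 and 0.0303 for RN7SL2. Without DOX 1 the changes were 0.62 (limma adjusted p = 0.000143) and 0.68 (limma adjusted p = 5.19e-05). With no minimum TPM neither passed (limma adjusted p = 0.717 and 0.656), a setting under which 28 of 18329 genes were called. Rescaled by the median ratio both passed (0.90 and 0.92, limma adjusted p = 0.025 and 0.0276), and without DOX 1 on that scale RN7SL1 missed at a limma adjusted p of 0.0623. Behind these values lay 940193, 700936 and 567147 estimated reads of RN7SL1 in the DOXplus columns, against 300801, 266999 and 535696 in the DOX columns.

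Because the copies cannot be told apart well, their sum is the safer quantity. It held 28.5%, 28.6% and 26.5% of TPM in the DOXplus columns and 19.3%, 15.2% and 20.8% in the DOX columns (exact permutation p = 0.1). Of estimated reads it held 12.3%, 9.78% and 10.2% in the DOXplus columns and 6.47%, 4.81% and 7.32% in the DOX columns. The ratio of RN7SL1 to RN7SL2 was 1.31, 1.43 and 1.40 in the DOXplus columns and 1.32, 1.40 and 1.48 in the DOX columns, so the division between the copies overlapped between arms. RN7SL3 had 5306, 5564 and 4870 TPM in the DOXplus columns, against 4415, 2081 and 2867 TPM in the DOX columns (log2 change 0.82 ± 0.20, limma adjusted p = 0.00428).

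Ratios within a column do not depend on how the columns are scaled. 8 were computed, chosen after values had been seen. The 7SL pair stood at 1.58, 1.63 and 1.25 times RN7SK in the DOXplus columns, against 0.814, 0.717 and 1.02 times in the DOX columns. Relative to RMRP it stood at 4.06, 4.47 and 4.40 times in the DOXplus columns and 3.06, 2.49 and 3.44 times in the DOX columns. Relative to SNORD3A it stood at 1.44, 2.27 and 1.51 times in the DOXplus columns and 1.19, 0.755 and 1.08 times in the DOX columns. None of these overlapped between arms (each exact permutation p = 0.1, adjusted p = 0.2 over the 8 ratios).

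**Figure D2:**
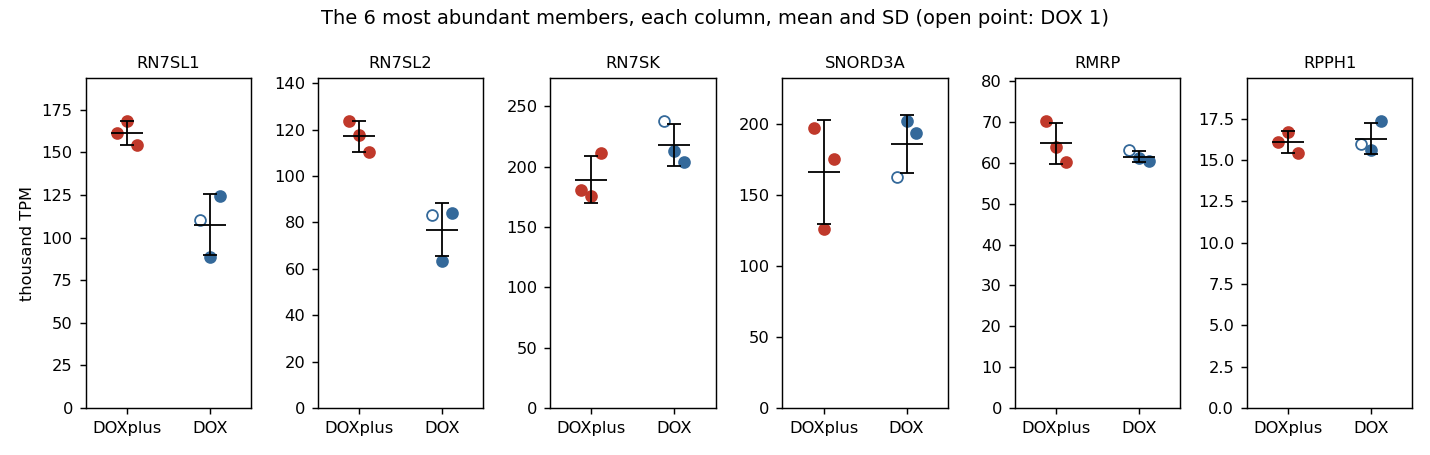
TPM, in units of 1000, of the 6 most abundant members in each column, with DOXplus left and DOX right in each panel; bars give the mean and SD of 3 columns and the open point is DOX 1. RN7SL1 and RN7SL2 are separated between arms, while RN7SK, SNORD3A, RMRP and RPPH1 overlap.

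RN7SK, SNORD3A, RMRP, RPPH1 and TERC overlapped between arms. RN7SK had 180575, 175621 and 211454 TPM in the DOXplus columns, against 237485, 212555 and 203514 TPM in the DOX columns (log2 change -0.21 ± 0.08, limma adjusted p = 0.0684). SNORD3A had 197321, 126053 and 174973 TPM in the DOXplus columns, against 162553, 201712 and 193259 TPM in the DOX columns (-0.18 ± 0.11, limma adjusted p = 0.233). Both directions depended on the scaling: rescaled by the median ratio RN7SK stood at 0.10 and SNORD3A at 0.12, neither called. DOXplus 2 was the lowest column for SNORD3A and DOX 1 the highest for RN7SK. RMRP averaged 64799 ± 5054 TPM in the DOXplus columns and 61604 ± 1417 TPM in the DOX columns (0.07 ± 0.09, limma adjusted p = 0.611). RPPH1 averaged 16076 ± 657 TPM in the DOXplus columns and 16294 ± 928 TPM in the DOX columns (-0.02 ± 0.12, limma adjusted p = 0.928); its highest column was only 1.13 times its lowest. TERC had 147, 195 and 179 TPM in the DOXplus columns, against 149, 254 and 253 TPM in the DOX columns. Its change was -0.30 ± 0.24 (limma adjusted p = 0.389), and -0.55 without DOX 1 (limma adjusted p = 0.0812).

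Of the 38 members, 36 had a mean of at least 1 TPM and were tested, and 2 rose (5.56%) and 6 fell (16.7%) at a limma adjusted p under 0.05. Of all 10551 genes tested, 2.09% rose and 16.1% fell (18.1% in either direction), so the share of members that fell was near that of all genes. SNORA38 and SNORD117 were below the minimum. The median log2 change was -0.22 over the tested members and -0.26 over all tested genes, and 16 of the 36 lay below the median of all genes. TPM is a share, and genes outside the set held 25.4% ± 4.02 of TPM in the DOXplus columns and 29.9% ± 2.16 in the DOX columns, a log2 ratio of -0.24. After the columns were rescaled by their median ratio, 3 members rose (SCARNA7, RN7SL1 and RN7SL2, where 13.7% of all genes did) and 1 fell (SNORD84, where 13.9% of all genes did), so SCARNA7's call depends on the scaling (its change was 0.07 on TPM and 0.38 rescaled). Relative to the genes outside the set 2 members rose (10.4% of all genes) and 1 fell (16.4%). Without DOX 1, 2 members rose (2.10% of all genes) and 9 fell (18.2%), but the members that fell were not the same. SNORD3D and SNORD52 lost their calls. Newly called were SNORA54 (-0.76, limma adjusted p = 0.0126), SNORA87 (-0.78, 0.00545), SNORA92 (-0.54, 0.0271), SNORD48 (-0.61, 0.00746) and SNORD131 (-0.56, 0.00185). Of these, SNORA87 and SNORA92 had at most 10 estimated reads in any column, and the others were too short to convert.

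**Figure D3:**
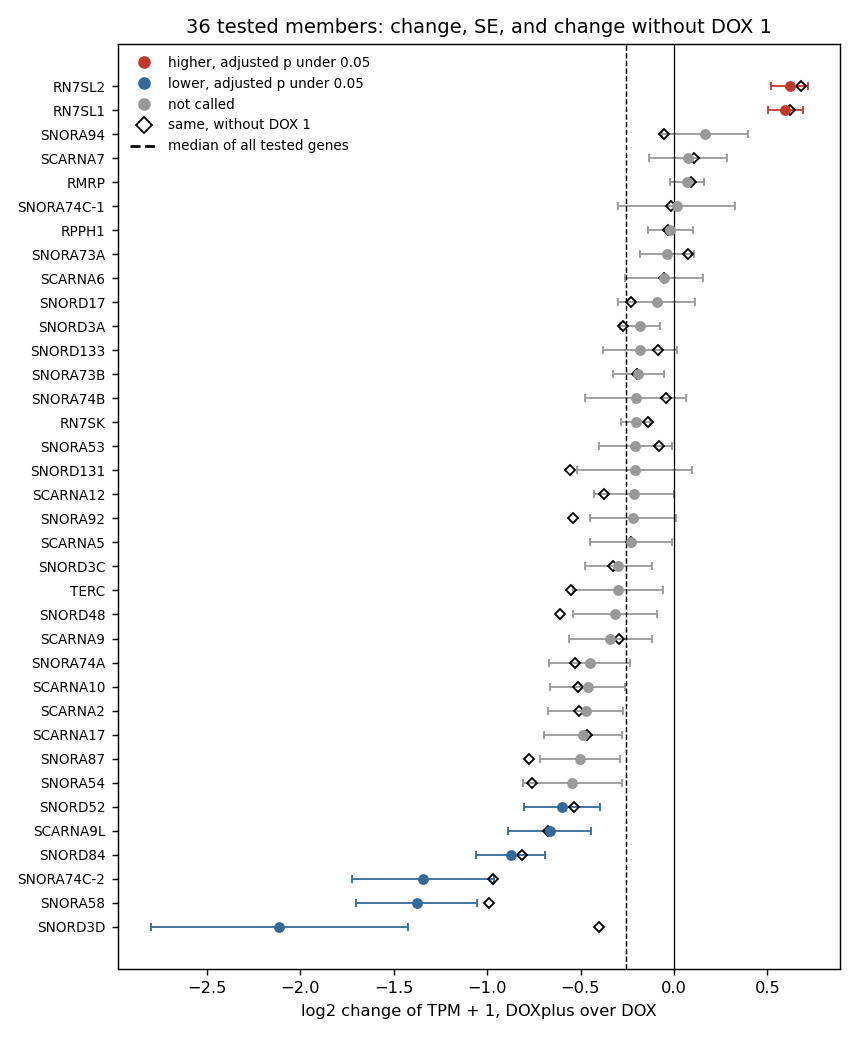
Log2 change of TPM + 1, DOXplus over DOX, for the 36 tested members, with limma's SE as bars; red points rose and blue points fell at adjusted p under 0.05, and open diamonds give the change without DOX 1. The dashed line is the median of all tested genes (-0.26), and SNORD3D moves from -2.11 to -0.40 when DOX 1 is left out.

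Among SNORD genes, a class that guides methylation apart from the U3 copies, 0 of 9 tested rose and 3 fell. Of all tested genes 2.09% rose and 16.1% fell. SNORD84 had 1.83, 2.39 and 1.91 TPM in the DOXplus columns, against 5.04, 4.75 and 3.95 TPM in the DOX columns (log2 change -0.87 ± 0.19, limma adjusted p = 0.00152). It was lower in every DOXplus column than in every DOX column, and the call held when any 1 column was left out (limma adjusted p = 0.000241 to 0.0293). SNORD84 lies inside DDX39B, on the same strand, and overlaps an exon of a DDX39B transcript. DDX39B was listed at 0.00469 to 0.0129 TPM over the 6 columns. Whether reads of DDX39B were counted for SNORD84 was not tested. At 78 bases SNORD84 could not be converted to estimated reads. SNORD52 had 2.73, 4.17 and 5.43 TPM in the DOXplus columns, against 7.27, 7.67 and 5.00 TPM in the DOX columns, with overlap (-0.60 ± 0.20, limma adjusted p = 0.0387), and the call held in 2 of 6 fits with 1 column left out (-0.78 to -0.39, limma adjusted p of up to 0.301; -0.53 and 0.0534 without DOX 1). Rescaled it stood at -0.35 (limma adjusted p = 0.22). SNORD3D had 16.4, 5.98 and 13.8 TPM in the DOXplus columns, against 562, 13.2 and 17.3 TPM in the DOX columns. Its change of -2.11 ± 0.69 (limma adjusted p = 0.0314) rested on DOX 1: without it the change was -0.40 (limma adjusted p = 0.205). The call was also lost without DOXplus 1 or DOXplus 2 (limma adjusted p of up to 0.301) and after rescaling (0.39).

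SNORD3D is 1 of the U3 copies shown above, and SNORD3C, the other minor copy, did not share its pattern. SNORD3C had 1719, 1643 and 1498 TPM in the DOXplus columns, against 1914, 2007 and 2044 TPM in the DOX columns, lower in every DOXplus column (-0.30 ± 0.18, limma adjusted p = 0.239). In estimated reads SNORD3D had 19, 5 and 10 in the DOXplus columns and 307, 8 and 15 in the DOX columns, while SNORD3A had 88850 to 230022 per column. SNORD133 averaged 1589 ± 330 TPM in the DOXplus columns and 1787 ± 264 TPM in the DOX columns (-0.18 ± 0.20, limma adjusted p = 0.532).

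Among SNORA genes, a class that guides pseudouridylation apart from the U17 genes, 0 of 12 tested rose and 2 fell (16.7%), where 16.1% of all genes fell. SNORA58 had 1.80, 2.48 and 0 TPM in the DOXplus columns, against 8.51, 4.28 and 2.40 TPM in the DOX columns (-1.38 ± 0.32, limma adjusted p = 0.00344). SNORA74C-2 had 21.3, 3.27 and 11.7 TPM in the DOXplus columns, against 44.3, 31.2 and 12.5 TPM in the DOX columns (-1.34 ± 0.38, limma adjusted p = 0.0138). Both overlapped between arms and rested on few reads, and neither passed after rescaling (limma adjusted p = 0.176 and 0.355). Leaving out 1 column moved SNORA58 to between -1.73 and -0.83, with its call lost without DOXplus 1 (limma adjusted p = 0.103). It moved SNORA74C-2 to between -1.87 and -0.68, with its call lost without DOXplus 1 or DOXplus 2 (limma adjusted p of up to 0.248). SNORA58 had 4, 4 and 0 estimated reads in the DOXplus columns and 9, 5 and 4 in the DOX columns. SNORA74C-2 had 9, 1 and 3 in the DOXplus columns and 9, 7 and 4 in the DOX columns, and its near-identical copy SNORA74C-1 had 5, 7 and 1 in the DOXplus columns and 2, 2 and 4 in the DOX columns. The read estimates of the SNORA74C genes also carry the error of their short length given above. The limma fit does not model the counting error of so few reads.

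The abundant SNORA genes did not pass. SNORA73A had 15681, 16336 and 11210 TPM in the DOXplus columns, against 17097, 13063 and 13939 TPM in the DOX columns (-0.04 ± 0.15, limma adjusted p = 0.869). SNORA73B had 10387, 10380 and 8368 TPM in the DOXplus columns, against 10954, 11027 and 11113 TPM in the DOX columns, lower in every DOXplus column (-0.19 ± 0.14, limma adjusted p = 0.328). SNORA74A averaged 367 ± 61.5 TPM in the DOXplus columns and 498 ± 50.6 TPM in the DOX columns (-0.45 ± 0.22, limma adjusted p = 0.137). The other SNORA genes ranged in change from -0.54 (SNORA54) to 0.17 (SNORA94), none of them called with all columns. SNORA54, SNORA87 and SNORA92 were called lower only when DOX 1 was left out, as given above.

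Of 36 tested members 10 were lower without overlap (32.4% of all tested genes were) and 2 higher (3.90% of all). SCARNA genes made up 6 of the 10, but of the 9 SCARNA genes only SCARNA9L passed the test. SCARNA9L had 29.1, 32.2 and 35.6 TPM in the DOXplus columns, against 51.1, 61.9 and 43.5 TPM in the DOX columns (-0.67 ± 0.22, limma adjusted p = 0.0357). Its call was lost when DOX 2, DOXplus 1 or DOXplus 3 was left out (limma adjusted p of up to 0.214), and after rescaling (0.0792). SCARNA10 averaged 605 ± 56.1 TPM in the DOXplus columns and 831 ± 54.0 TPM in the DOX columns (-0.46 ± 0.20, limma adjusted p = 0.104), and SCARNA2 averaged 502 ± 26.4 TPM in the DOXplus columns and 697 ± 31.4 TPM in the DOX columns (-0.47 ± 0.20, limma adjusted p = 0.0975). SCARNA12 averaged 576 ± 85.2 TPM in the DOXplus columns and 673 ± 126 TPM in the DOX columns (-0.21 ± 0.21, limma adjusted p = 0.494). SCARNA7 and SCARNA6 were nearly level, at 504 and 30.6 TPM in the DOXplus columns and 479 and 31.8 TPM in the DOX columns. Rescaled by the median ratio, the median change of the class was -0.04.

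**Figure D4:**
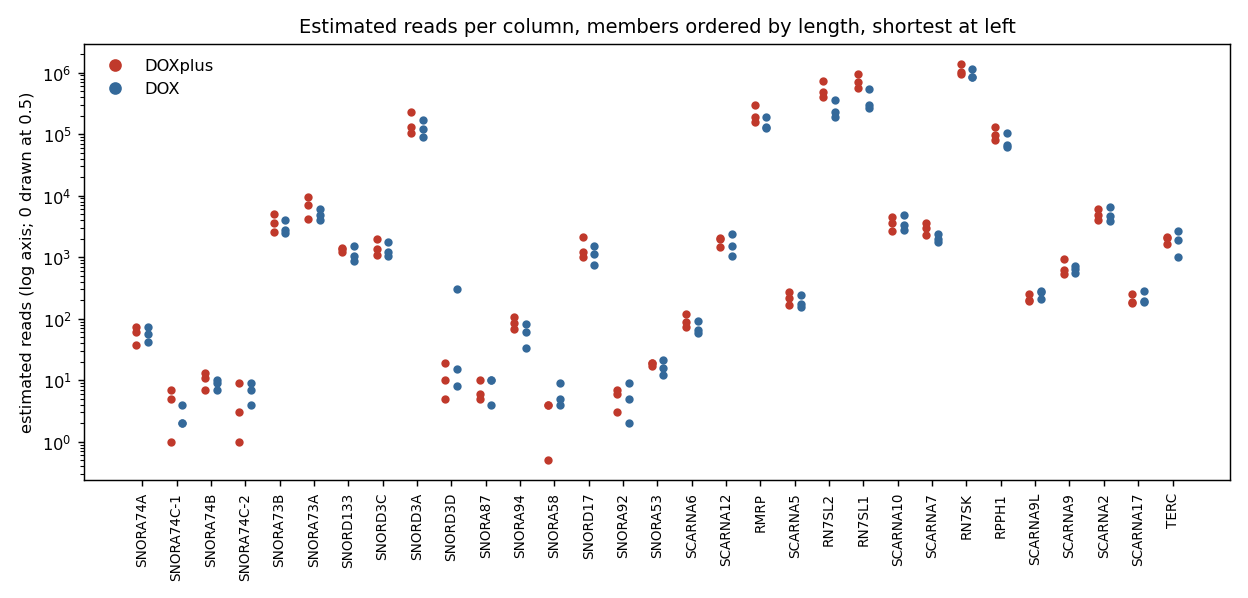
Estimated reads on a log axis in each DOXplus (red) and DOX (blue) column for the 31 members long enough to convert, ordered by length; the 0 of SNORA58 in DOXplus 3 is drawn at 0.5. RN7SK, RN7SL1, RN7SL2, RMRP and SNORD3A lie near or above 88850 reads in every column, while SNORA58, SNORA74C-1, SNORA74C-2 and SNORA92 have at most 9.

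Dividing each column by the sum of the set shifts the log2 changes of all members by nearly the same amount. Their order was therefore fixed beforehand, apart from the effect of the pseudocount of 1 on low values, and is no separate result. With every column scaled so that the members add up to 1000000, the median change of the members was -0.30, 33 of 36 were below 0, and RN7SL1 (0.51), RN7SL2 (0.53) and SNORA94 (0.08) were above it. RN7SK changed by -0.29 and SNORD3A by -0.27 on this scale, and RMRP by -0.02. These values are given as the order within the set. Without DOX 1, RN7SL1 stood at 0.52 and RN7SL2 at 0.58. A fit of the set's genes alone called 0 members; a fit of all genes on this scale, added after that result had been seen, called 2 higher (1.28% of all genes) and 7 lower (17.2%).

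Longer genes were listed more often. Of RefSeq genes named by the same rule, 40 of 65 with at least 200 bases were listed for RKO (61.5%), and 43 of 2430 under 200 bases (1.77%). Of the 7 members under 200 bases, 5 (SNORD52, SNORD48, SNORD117, SNORD84 and SNORA38) lie within 1 stretch of chromosome 6, chr6:31536374-31837139.

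Most guide RNA genes sit inside introns of other genes and are cut out of the host transcript. Of 16 tested members with a tested host on the same strand, 12 had a change below 0 beside a host change below 0, where the median of all tested genes was itself -0.26 and 30 of 36 tested members were below 0. Of the 16, 9 had a change above that of the host and 7 below it, and the median difference was 0.06. Of the 14 hosts 2 fell, where 16.1% of all genes did. SNHG4, host of SNORA74A, had a change of -0.79 (limma adjusted p = 0.00376) beside -0.45 for SNORA74A, and NCAPD2, host of SCARNA10, had -0.83 (limma adjusted p = 0.00749) beside -0.46 for SCARNA10. The members farthest below their hosts were SNORA74C-2 in TIMM23B (-1.34 and -0.21) and SNORA58 in MRPL3 (-1.38 and -0.28), both with few reads.

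Genes for proteins that bind, make or trim these RNAs were counted in lists. Of 150 tested, 31 fell (20.7%) and 1 rose (0.667%), where 16.1% of all genes fell and 2.09% rose. Rescaled by the median ratio, 29 fell and 14 rose, where 13.9% of all genes fell and 13.7% rose, so the share of calls that were higher depends on the scaling. Of the genes named below, DKC1, SHQ1, RUVBL1, GEMIN2, HEXIM1, LARP7 and SNHG9 did not pass after rescaling (limma adjusted p = 0.0573 for SHQ1 to 0.11 for DKC1). The core proteins of box C/D particles gave 0 calls of 4, with FBL, the methyltransferase fibrillarin, at -0.55 ± 0.23 (limma adjusted p = 0.0834) and NOP56 at -0.44 ± 0.22 (0.162). Of the H/ACA core 1 of 4 fell: DKC1, the pseudouridine synthase dyskerin, had 15.3, 20.9 and 16.5 TPM in the DOXplus columns, against 31.6, 26.5 and 23.2 TPM in the DOX columns (-0.60 ± 0.21, limma adjusted p = 0.0493, and 0.128 without DOX 1). NHP2 changed by -0.52 ± 0.23 (limma adjusted p = 0.106). Rescaled by the median ratio, NOP10 of the H/ACA core rose (0.46, limma adjusted p = 0.0321) and FBL fell (-0.26, limma adjusted p = 0.0481).

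The falls of the next 4 lists stand beside 16.1% of all tested genes that fell. Of the proteins that assemble these particles 2 of 11 fell (18.2%), SHQ1 (-0.64, limma adjusted p = 0.018) and RUVBL1 (-0.59, limma adjusted p = 0.0407), and neither passed without DOX 1. Of the Cajal body list 3 of 9 fell (33.3%). Among them were WRAP53, which brings SCARNA and telomerase RNA to that body (-0.67, limma adjusted p = 0.0108), and GEMIN2 (-0.59, limma adjusted p = 0.0282, and 0.0541 without DOX 1). Of 16 Sm and LSm proteins 3 fell (18.8%), led by LSM5 (-0.93, limma adjusted p = 0.00129) and LSM6 (-0.88, limma adjusted p = 0.00489). Of 9 proteins of the U1, U2 and U5 particles 4 fell (44.4%), led by SNRNP70 (-0.80, limma adjusted p = 0.0108) and PRPF8 (-0.71, limma adjusted p = 0.0201). In these 4 lists no gene rose on TPM, where 2.09% of all genes did. Rescaled by the median ratio, only NAF1 of the assembly list rose (0.30, limma adjusted p = 0.0417), where 13.7% of all genes did.

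The 7SK particle gave 3 falls of 6, where 16.1% of all genes fell, and 1 of 6 after rescaling, where 13.9% did. HEXIM1, which binds 7SK and inhibits P-TEFb, averaged 4.41 ± 0.772 TPM in the DOXplus columns and 8.24 ± 2.19 TPM in the DOX columns (-0.76 ± 0.19, limma adjusted p = 0.00698; rescaled -0.50, 0.072). MEPCE, which caps 7SK, averaged 22.9 ± 3.19 TPM in the DOXplus columns and 41.4 ± 6.04 TPM in the DOX columns (-0.83 ± 0.22, limma adjusted p = 0.00834). LARP7, which binds the 3′ end of 7SK, changed by -0.60 (limma adjusted p = 0.0384, and 0.113 without DOX 1).

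The signal recognition particle, whose RNA is 7SL, gave 1 fall of 6 (16.7%), where 16.1% of all tested genes fell. Without DOX 1 it gave 2, as SRP68 passed at a limma adjusted p of 0.0263, where 18.2% of all tested genes fell. SRP9, which binds the Alu end of 7SL together with SRP14, had 9.13, 17.25 and 12.4 TPM in the DOXplus columns, against 65.1, 55.0 and 44.8 TPM in the DOX columns. Every DOXplus column was below every DOX column, with a log2 change of -2.03 ± 0.23 (limma adjusted p = 1.28e-06). After rescaling it was -1.75 (limma adjusted p = 0.00165), and the call held without DOX 1 (limma adjusted p = 3.38e-13). SRP14 averaged 78.3 ± 14.3 TPM in the DOXplus columns and 89.3 ± 14.9 TPM in the DOX columns (-0.19 ± 0.23, limma adjusted p = 0.582), and SRP19 changed by -0.47 ± 0.19 (limma adjusted p = 0.0779). The 7SL pair and SRP9 moved in opposite directions in the same columns.

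**Figure D5:**
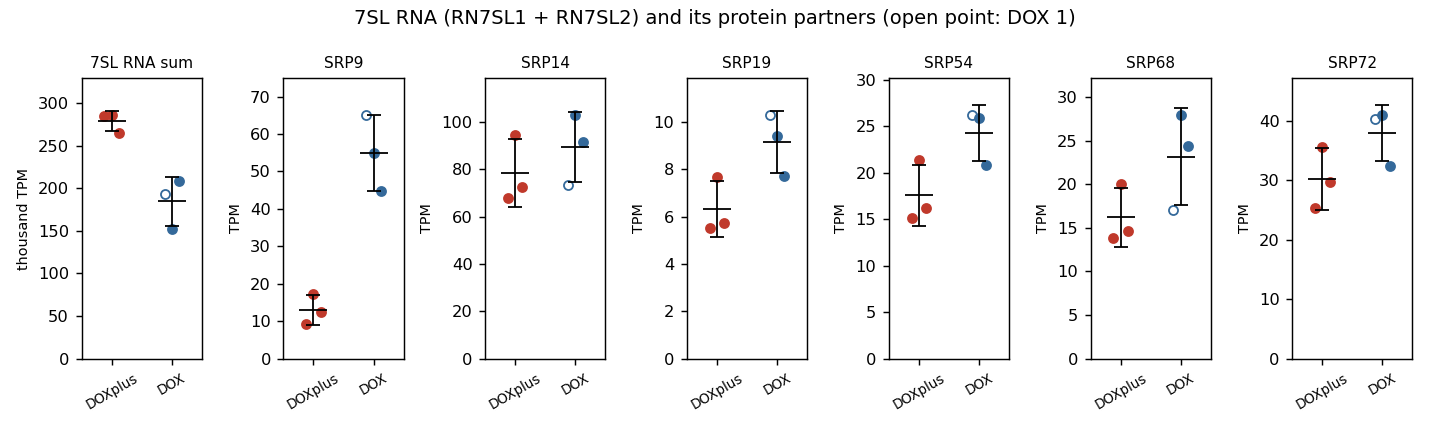
Summed TPM of RN7SL1 and RN7SL2 (in units of 1000) and TPM of the 6 protein genes of the signal recognition particle, DOXplus left and DOX right in each panel, with the mean and SD of 3 columns; the open point is DOX 1. The 7SL sum is higher in every DOXplus column, SRP9 and SRP19 are lower in every DOXplus column, and SRP14, SRP54, SRP68 and SRP72 overlap.

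The shares of the remaining lists stand beside 16.1% of all tested genes that fell on TPM. Rescaled by the median ratio, 13.9% of all tested genes fell and 13.7% rose. RNase P and MRP proteins gave 1 fall of 8 (12.5%), RPP30 (-0.57, limma adjusted p = 0.0459), with RPP40 at the same size (-0.57, limma adjusted p = 0.0546). Rescaled, 1 of this list fell and 1 rose. The 2 Ro and La genes, TROVE2 and SSB, did not pass (-0.36 and -0.25), nor did TINF2 and TEP1 of the telomerase list (-0.06 and -0.01). TERT, the other gene of that list, was below the minimum and not tested. Of 19 genes for transcription and 3′ processing of spliceosomal RNAs 4 fell (21.1%), and rescaled by the median ratio 4 fell and 3 rose. The falls on TPM were led by the Integrator subunits INTS8 (-0.80, limma adjusted p = 0.00599) and INTS7 (-0.61, limma adjusted p = 0.0187). RNA polymerase III makes 7SL, 7SK, RMRP and RPPH1. Of 20 of its subunits and factors 3 fell (15%), led by GTF3C4 (-0.79, limma adjusted p = 0.00659). Rescaled by the median ratio, 3 of them fell and 3 rose. Those that rose were POLR3G (0.72, limma adjusted p = 0.00376), POLR3A (0.39, limma adjusted p = 0.00592) and POLR3GL (0.38, limma adjusted p = 0.0111). Of 15 nuclear RNA decay genes 3 fell (20%), all exosome subunits, led by EXOSC9 (-0.79, limma adjusted p = 0.00814) and EXOSC8 (-0.73, limma adjusted p = 0.0195). Rescaled, 3 of this list fell and 0 rose. Of 19 noncoding host genes 3 fell (15.8%), led by SNHG4 (-0.79) and SNHG9 (-1.07, limma adjusted p = 0.0047). Rescaled, SNHG9 stood at -0.78 (limma adjusted p = 0.104). SNHG8 rose (0.75 ± 0.24, limma adjusted p = 0.0276, and 0.0718 without DOX 1), which is 5.26% of the list, where 2.09% of all tested genes rose. Rescaled by the median ratio, 5 host genes rose and 2 fell. SNHG9 had 19.4, 33.6 and 18.5 TPM in the DOXplus columns, against 75.7, 45.4 and 35.1 TPM in the DOX columns, with DOX 1 the highest (limma adjusted p = 0.0108 without it).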

How the data were processed

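RNA of RKO cells was sequenced in 6 samples. Libraries were stranded and made for polyadenylated RNA, per the labels' protocols. STAR, DESeq2 and GRCh38 are named in the submitters' processing notes without versions or roles. The authors deposited TPM per gene, and each column adds up to 1000000. The labels give 1 agent for all samples, so the arm was read from the column headings. The test was limma (version 3.58.1, run in R version 4.3.3), applied to log2(TPM + 1) of every gene whose mean reached 1 TPM, with a prior variance that follows the mean level and Benjamini-Hochberg adjustment over all genes tested. Fold changes are on the log2(TPM + 1) scale, which understates the change of low genes. Calls are limma adjusted p under 0.05. Single values were compared with exact two-sided permutation tests. The limma step was tested on simulated data.

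Depth is not given by TPM. Reads were estimated as TPM times RefSeq or GENCODE release 29 length less 196.5 bases, divided by a factor per column, over genes that hold 99.3% to 99.7% of TPM. These estimates are not counts, and no count test was run. All 38 members matched RefSeq (GRCh38.p14) and 32 matched GENCODE. Hosts are the shortest listed gene that holds a member on the same strand.

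Genes named are the 6 given by name, the 3 most abundant of each class, and MUC1. Called members with the largest change whose arms do not overlap are also named (at most 6 per direction). Up to 2 genes per partner list with the smallest adjusted p are named too. Other members and partner genes are named because of their values. Members and lists were chosen with earlier results of these data known. The labels do not say whether column numbers pair the samples, and the main fit used no pairing. Alternatives changed the pseudocount (0.1, 5), the minimum TPM (none, 5), the scaling (median ratio, sum of the set, sum of all other genes), the trend (none), and the columns (number as a block, each left out, DOX 1 left out with rescaling). For shares they were TPM times length, estimated reads, the most abundant gene left out and medians. The scaling by all other genes and the estimated reads were chosen after seeing the data, as were the inclusion of members in the genes that set the shortening (a first estimate without them left low member values off whole reads) and the choice of the shortest host. The comparison within the set was planned as a fit of the set's genes alone. That fit gave 0 calls, and a fit of all genes relative to the sum of the set was added after that result had been seen; both counts are given with the alternatives. Some items are not reported here.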

Additional observations from a re-analysis of the deposited data

How the results depend on the processing

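The count of members that rose (2) became 0 with no minimum TPM and 0 within the set, with all columns or without DOX 1, and was 2 to 2 when 1 column was left out. The count that fell (6) became 3 with a pseudocount of 5, 0 with no minimum TPM, 1 rescaled by the median ratio, 1 relative to genes outside the set, and 0 within the set, with all columns or without DOX 1; leaving out 1 column gave 1 to 9. The planned limma fit within the set tested the 36 members alone and called 0, with 11 at an unadjusted p under 0.05 (13 without DOX 1). A limma fit of all genes relative to the set, added after that result had been seen, called 2 higher and 7 lower. With no minimum TPM 8 members had an unadjusted p under 0.05. The cause of these changes was not tested.

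Partner genes that rose (1) numbered 0 with no minimum TPM, 14 rescaled, 12 without small noncoding RNA genes, 23 rescaled without DOX 1, and 0 to 1 with 1 column left out. Those that fell (31) numbered 0 with no minimum TPM, 61 rescaled without DOX 1, and 3 to 57 with 1 column left out. MUC1 missed the limma threshold with a pseudocount of 5 (-0.83), no minimum TPM (-1.88), rescaling (-1.77), small noncoding RNA genes removed or all genes set relative to the rest (-2.78 in both), the replicate block (-1.88), and without DOXplus 1 (limma adjusted p = 0.166) or DOXplus 2 (0.0819). It ranged from -2.40 to -1.86 over the 5 fits with 1 column left out.

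The SNORA share difference (-0.178 percentage points) changed sign as TPM times length (0.0156), estimated reads (0.00709) and medians (0.0881), with -0.311 to 0.053 when 1 column was left out. The SNORD difference (-2.05) changed sign in estimated reads (0.0633). The differences of the whole set, SCARNA and the 6 genes given by name kept their direction. In estimated reads RN7SK (-2.86 in TPM) stood at 0.058 and SNORD3A (-1.97 in TPM) at 0.0641.

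Whether column numbers pair the samples is not known. Deviations of same-numbered columns correlated at 0.29, 0.27 and -0.01, and differently numbered columns were not compared. With the number as a replicate block, 2 members rose and 5 fell. Of all 10551 genes 2415 were called with the block, against 1915 in the main fit. Of 17 named members tested, 8 stayed on their side of the threshold throughout; of these 8 only SNORA74A also kept its direction under every alternative. No RNU gene was a member, so the alternative on RNU copies gave no value.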
